A study of Glycine max with 18 samples.

Results

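The pseudo-response regulator (PRR) genes described here, 5 in number, were followed through 1 circadian day in leaves of soybean (*Glycine max*). They were taken by their identifiers as *GmPRR5d* (Glyma.07G049400), *GmPRR3b* (Glyma.12G073900, the flowering locus *Tof12*), a pair of *GmPRR7* genes on chromosome 10 (Glyma.10G048100) and chromosome 13 (Glyma.13G135900), and *GmPRR5b* (Glyma.04G228300), which makes 5 of the 55589 annotated genes listed in every library. The plants were wild-type Ws82 (Williams 82), grown according to the sample labels under 8 h light and 16 h dark for about 18 days at 24 °C in the light and 22 °C in the dark, then moved to constant light at 25 °C. The text on the whole series gives 12 h light and 12 h dark instead. From 1 day after the transfer, the first trifoliate leaf was sampled every 4 h over 20 h, at the 6 zeitgeber times (ZT) ZT24, ZT28, ZT32, ZT36, ZT40 and ZT44, which the labels count as 0 to 20 h. Independent biological replicates, 3 per time point and named L, M and R, were sequenced, so that 18 libraries of ribosomal-RNA-depleted total RNA were available. By the labels the groups shared genotype, tissue and constant light and differed in sampling time. A bulk leaf sample cannot separate fewer expressing cells from less RNA per cell. *CAB2-7* (Glyma.16G016100), a light-harvesting chlorophyll-binding gene used as the leaf marker, was present in every library, with means from 30.9 ± 2.78 TPM (SD, n = 3) at ZT40 to 603 ± 65.8 TPM at ZT24.

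PRR proteins are core repressors of the plant clock. They carry a pseudo-receiver domain and a CCT motif, and in *Arabidopsis* PRR9, PRR7, PRR5 and TOC1 are produced one after the other from dawn to dusk. In *Arabidopsis*, PRR9, PRR7 and PRR5 repress the morning MYB genes *CCA1* and *LHY*, while PRR3 protects TOC1 protein from degradation. In soybean, *Tof12* is known as a locus that affects flowering time and maturity.

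Levels are given as TPM, a transcript abundance that is scaled by transcript length and by the library total, and that can therefore be compared between genes. The libraries held between 3.11 and 7.24 Gb of aligned sequence, with ZT44 the shallowest (3.11 to 3.53 Gb). The TPM of annotated genes summed to 51.3% to 78.6% of 1000000 in a library. Assembled loci on their own summed to 1000000 in each library, so these sums are not shares of a common total. The library ZT32 R stood apart, with the lowest annotated sum (51.3% of 1000000, against 56.2% to 78.6% in the others). It held 227701 assembled loci that carry no strand, where the other 17 libraries had 803 to 35008. ZT36 L had both the next lowest sum (56.2%) and those 35008 loci, and all 5 genes were lowest in it among the ZT36 libraries. All 5 were likewise lowest in ZT28 L and in ZT44 M at those time points. All 5 PRR genes were lowest in ZT32 R among the ZT32 libraries. The 5 genes together reached 18.96 TPM there, 34.8% of the mean of ZT32 L and M, where the sum over all annotated genes was at 73.4%. The median gene tested was at 71.4% by TPM + 1. The added 1 draws low genes towards equality, so this value is not on the same measure as the sums. The part of ZT32 R in the results was not tested, and results at ZT32 are given with it and in part also without it.

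By the peak times of fitted 24-h curves, the data showed a wave of the 5 genes that began with *GmPRR5d*. The chromosome 13 *GmPRR7* and *GmPRR5b* came last, with peaks 0.441 h apart, less than the SE of either. All 5 varied over the 6 time points (moderated F-test of limma, largest adjusted p = 1.63e-07) and all 5 passed the test of a 24-h cosine (largest adjusted p = 2.39e-05). That count has to be read against a background in which 76.3% of the 24620 genes tested passed the F-test and 64.7% passed the cosine test, so passing alone did not set the family apart. The median range between the highest and the lowest time point was 3.22 on the log2(TPM + 1) scale in the 5 genes (2.01 to 4.73), beside 1.04 over all genes tested. That scale understates changes of low genes, and the sets differed in level. The median highest mean was 10.6 TPM in the 5 genes and 3.89 TPM over all genes tested. The 5 ranges lay at the 88.5th to 99.5th percentile of all genes tested, lowest for the chromosome 13 *GmPRR7* and highest for *GmPRR5d*.

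**Figure D1:**
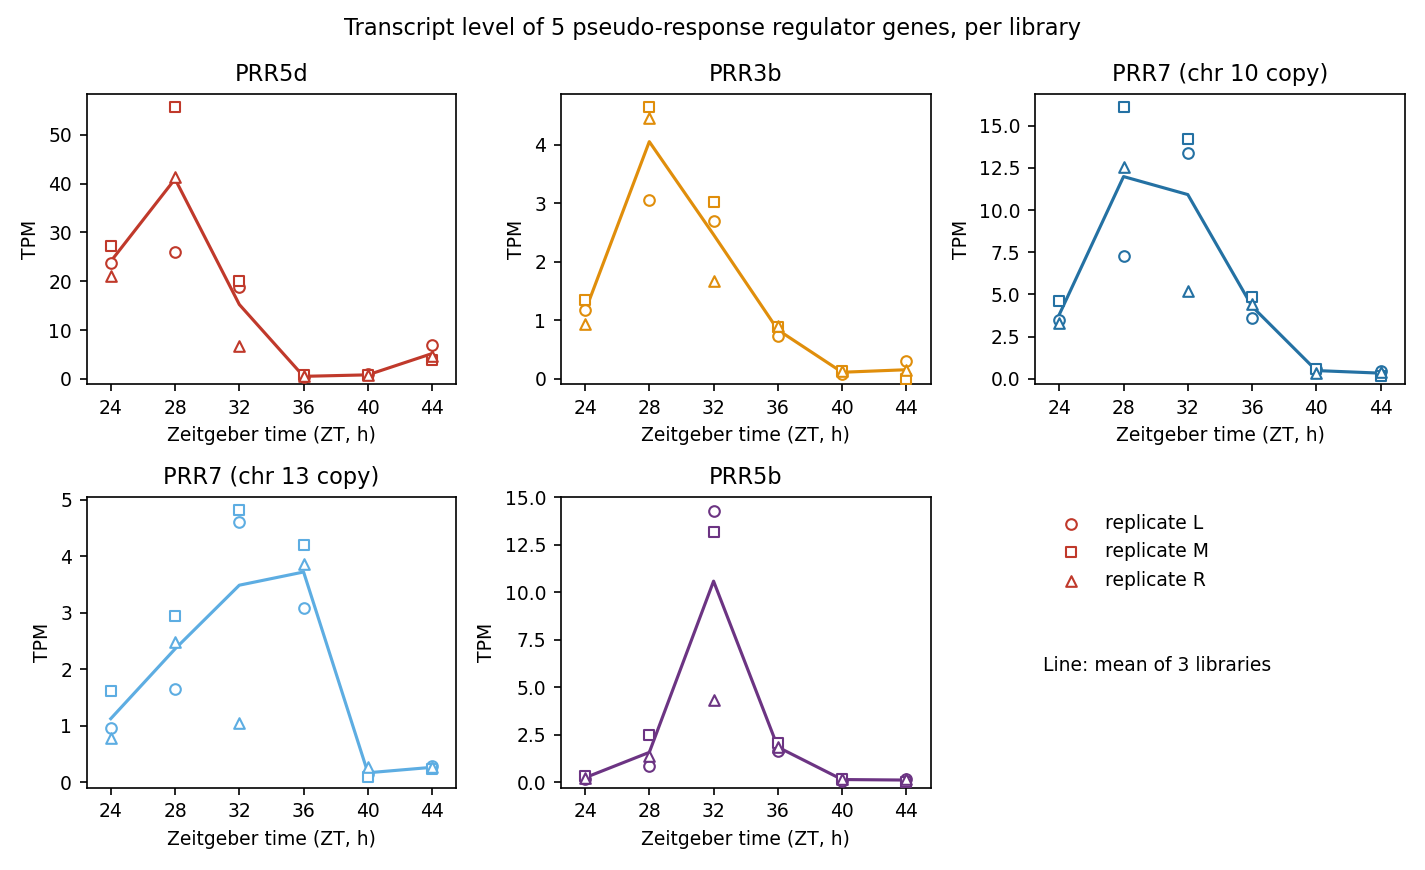
Level of each of the 5 genes in TPM (y axis, from 0, own scale in each panel) against zeitgeber time (x axis, h); open symbols are single libraries and the line is the mean of 3. The high point moves from ZT28 in *GmPRR5d* and *GmPRR3b* to ZT32 in *GmPRR5b*, and the triangle of ZT32 R lies below the other ZT32 libraries in every panel.

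*GmPRR5d*, which the study places in the morning loop of the clock, reached the highest level of the 5 genes and peaked first. It lies on the minus strand of chromosome 7 (4201368 to 4206174 in Gmax_Wm82_a2_v1). Replicates L, M and R had 23.8, 27.3 and 21.1 TPM at ZT24 and 25.9, 55.7 and 41.2 TPM at ZT28. They had 18.8, 20.1 and 6.73 TPM at ZT32, and then 0.287, 0.715 and 0.571 TPM at ZT36. The 3 libraries of ZT36 lay far below every library of ZT32, and the lowest libraries at ZT28 and the highest at ZT24 overlapped. At ZT40 the levels were 0.930, 0.808 and 0.747 TPM, and at ZT44 they had come back to 6.96, 3.93 and 4.68 TPM. ZT28 exceeded ZT36 by 4.73 ± 0.319 (SE) on the log2(TPM + 1) scale, a ratio of means of 78.1. This pair of time points was chosen as the highest and the lowest mean, so the difference is a description; 11.8% of all genes tested were called higher at ZT28 than at ZT36.

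*GmPRR3b*, a low-level member, was highest at ZT28 in all 3 replicate series. It lies on the plus strand of chromosome 12 (5508365 to 5522772). Its libraries rose from 1.17, 1.34 and 0.944 TPM at ZT24 to 3.05, 4.64 and 4.46 TPM at ZT28. They had 2.70, 3.02 and 1.67 TPM at ZT32 and 0.729, 0.876 and 0.898 TPM at ZT36. No library of ZT28 overlapped any library of the other time points. The gene was close to 0 at ZT40 (0.0756, 0.127 and 0.134 TPM) and at ZT44, where L and R had 0.311 and 0.159 TPM and M was listed at 0. The difference from ZT40 to ZT28 was 2.17 ± 0.199 on the log2(TPM + 1) scale, again for a pair chosen by its means (7.12% of all genes were called higher at ZT28 than at ZT40). The first 176 bp of *GmPRR3b* are shared with the same-strand gene model Glyma.12G073800, which no source used here names. That neighbour was also highest at ZT28 (2.91 ± 1.72 TPM, n = 3) and lowest at ZT44 (0.0813 ± 0.141 TPM), and its part in the *GmPRR3b* values was not tested. Where StringTie assembled a locus over at least 90% of *GmPRR3b* (8 of 18 libraries), the TPM of that locus was 1.12 to 1.42 times that of the annotated gene.

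The *GmPRR7* genes, which in *Arabidopsis* have a single counterpart that represses *CCA1* and *LHY*, differed in level and in time. The chromosome 10 gene (minus strand, 4315957 to 4327545) had 3.49, 4.63 and 3.31 TPM at ZT24, 7.28, 16.1 and 12.6 TPM at ZT28 and 13.4, 14.2 and 5.20 TPM at ZT32. The libraries of ZT28 and ZT32 overlapped. Its mean was 12.0 ± 4.45 TPM at ZT28 and 10.9 ± 4.97 TPM at ZT32, and without ZT32 R the mean at ZT32 was 13.8 TPM, so which of them was the highest depended on that library. ZT32 was also the highest when ZT28 M was left out. At ZT36 it still had 3.59, 4.84 and 4.45 TPM. It then dropped to 0.563, 0.588 and 0.334 TPM at ZT40 and 0.445, 0.155 and 0.430 TPM at ZT44. ZT28 exceeded ZT44 by 3.22 ± 0.290 on the log2(TPM + 1) scale (8.26% of all genes were called higher at ZT28 than at ZT44).

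The chromosome 13 gene (minus strand, 24839737 to 24851002) stayed high later than the chromosome 10 gene. It had 0.973, 1.62 and 0.795 TPM at ZT24, 1.65, 2.95 and 2.48 TPM at ZT28, and 4.60, 4.81 and 1.05 TPM at ZT32. At ZT36 it had 3.09, 4.20 and 3.87 TPM, before 0.141, 0.0863 and 0.276 TPM at ZT40 and 0.295, 0.240 and 0.269 TPM at ZT44. The ZT36 libraries did not overlap those of ZT24, ZT28, ZT40 or ZT44, and lay between the high and the low libraries of ZT32. The highest mean was 3.72 ± 0.571 TPM at ZT36, and without ZT32 R it moved to ZT32 at 4.70 TPM (n = 2), as it did to ZT32 without ZT36 M. The difference from ZT40 to ZT36 was 2.01 ± 0.274 on the log2(TPM + 1) scale.

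*GmPRR5b* was high at ZT32 and low 4 h before and after. It lies on the minus strand of chromosome 4 (49758485 to 49763637). It had 0.171, 0.328 and 0.245 TPM at ZT24 and 0.857, 2.48 and 1.40 TPM at ZT28. At ZT32 it had 14.3, 13.2 and 4.31 TPM, and at ZT36 it was back to 1.63, 2.09 and 1.85 TPM. All libraries of ZT32, R included, lay above every other library. At ZT40 it had 0.0880, 0.204 and 0.161 TPM and at ZT44 0.185, 0.0230 and 0.172 TPM. ZT32 exceeded ZT44 by 3.22 ± 0.273 on the log2(TPM + 1) scale, a ratio of means of 83.7 (9.6% of all genes were called higher at ZT32 than at ZT44). These values include ZT32 R, and the mean at ZT32 was 10.6 TPM with that library and 13.7 TPM without it. The same-named *GmPRR5d* had passed its own high point by ZT32 and fallen to its lowest mean by ZT36, when *GmPRR5b* was at 1.86 ± 0.226 TPM.

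The order of the levels changed through the day. At ZT24 *GmPRR5d* lay above the chromosome 10 *GmPRR7* and that above *GmPRR3b* in all 3 libraries, while *GmPRR3b* and the chromosome 13 *GmPRR7* overlapped and *GmPRR5b* lay below them. At ZT28 the order was *GmPRR5d*, chromosome 10 *GmPRR7*, *GmPRR3b* and chromosome 13 *GmPRR7* without overlap, and *GmPRR5b* overlapped with the last. At ZT32 *GmPRR5d*, the chromosome 10 *GmPRR7* and *GmPRR5b* overlapped. Without ZT32 R, *GmPRR5d* lay above both of these genes, with 18.8 and 20.1 TPM. The chromosome 10 *GmPRR7* (13.4 and 14.2 TPM) and *GmPRR5b* (14.3 and 13.2 TPM) still overlapped. At ZT36 the *GmPRR7* genes overlapped with each other, and both lay above *GmPRR5b*, which lay above *GmPRR3b* and *GmPRR5d*. At ZT40 *GmPRR5d* and then the chromosome 10 *GmPRR7* lay above the other 3 genes, which overlapped. At ZT44 *GmPRR5d* lay above the other 4 genes, which overlapped except that the chromosome 13 *GmPRR7* lay above *GmPRR5b* in all libraries.

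Cosine curves with the period fixed at 24 h placed the 5 peaks over 5.29 h. *GmPRR5d* peaked at ZT 26.8 ± 0.245 h (SE), *GmPRR3b* at ZT 29.4 ± 0.307 h, the chromosome 10 *GmPRR7* at ZT 30.1 ± 0.280 h, the chromosome 13 *GmPRR7* at ZT 31.6 ± 0.559 h and *GmPRR5b* at ZT 32.1 ± 0.463 h. When each replicate series was fitted alone, the order was the same in all 3 series. A series groups libraries by letter. Whether a letter pairs samples was not established, so a series is not taken as a repeated time course. The peak of *GmPRR5d* ranged from ZT 26.4 to 27.2 over the series and that of *GmPRR3b* from ZT 29.3 to 29.5. The chromosome 10 *GmPRR7* ranged from ZT 29.8 to 30.4, which did not overlap with *GmPRR3b*, although their gap was only 0.714 h. The chromosome 13 *GmPRR7* (ZT 31.2 to 31.99) and *GmPRR5b* (ZT 31.8 to 32.3) overlapped, and their gap of 0.441 h was smaller than either SE. The 6 time points cover less than 1 cycle, so the period itself could not be estimated, and no p-value was computed for the order.

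**Figure D2:**
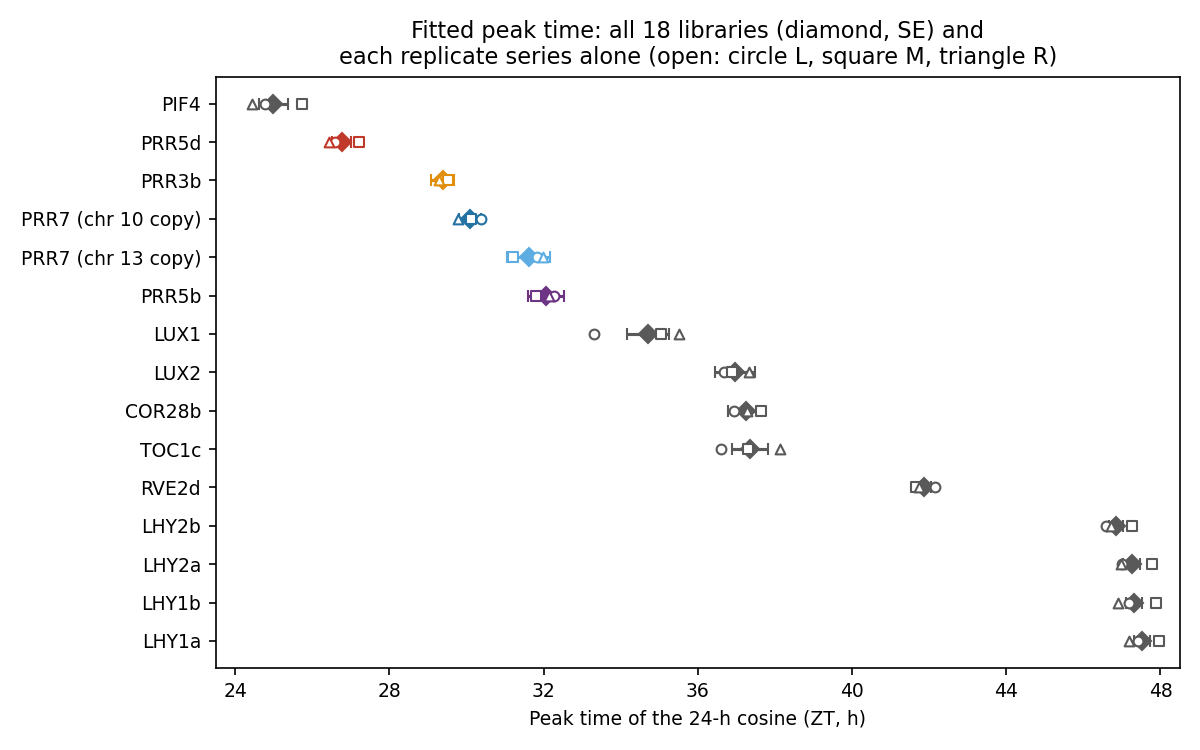
Peak time of the fitted 24-h cosine (x axis, ZT in h) for the 5 *PRR* genes (coloured) and 10 other clock genes (grey); diamonds with SE use all 18 libraries and open symbols a replicate series alone. The *PRR* peaks run from 26.8 to 32.1, after *PIF4* and before *LUX1*.

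Among 10 other clock genes with an identifier in the study, all 10 passed the F-test (76.3% of all genes did) and all 10 the cosine test. The morning MYB genes *LHY1a*, *LHY1b*, *LHY2a* and *LHY2b*, targets of PRR repression in *Arabidopsis*, had fitted peaks from ZT 46.9 to ZT 47.5. *PIF4*, a growth-promoting bHLH factor, peaked at ZT 25.0, before all 5 *PRR* genes. *LUX1* (ZT 34.7) and *LUX2* (ZT 37.0), which encode the DNA-binding member of the evening complex, followed them. *TOC1c*, a member of the wider PRR family, and the cold-regulated clock gene *COR28b* peaked at ZT 37.4 and ZT 37.2. *RVE2d*, an LHY-related MYB gene, peaked at ZT 41.9. The cosine peaks of all 5 *PRR* genes thus fell in the interval between *PIF4* and *LUX1*. The median range of the 10 genes was 3.94 on the log2(TPM + 1) scale, beside 3.22 in the 5 *PRR* genes. Their median highest mean was also higher, at 30.4 TPM beside 10.6 TPM.

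The steps between neighbouring time points showed how the wave moved. A step was called where limma's contrast had an adjusted p under 0.05 over all 24620 genes, and 17 of the 30 steps of the 5 genes were called. Over all 24620 genes, calls in either direction numbered 3432 from ZT24 to ZT28, 2432 from ZT28 to ZT32 and 13657 from ZT32 to ZT36. They numbered 2021 from ZT36 to ZT40, 5067 from ZT40 to ZT44 and 2612 between ZT44 and ZT24. The median gene itself moved between time points, by -0.31 to 0.53 on the log2(TPM + 1) scale, and quantile normalization, which removes that shift, was run beside each step.

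From ZT24 to ZT28, 3 of 5 genes rose (4.65% of all genes did). *GmPRR3b* gained 1.22 ± 0.199 (adjusted p = 4.94e-05), the chromosome 10 *GmPRR7* 1.38 ± 0.290 (adjusted p = 0.00111) and *GmPRR5b* 1.00 ± 0.273 (adjusted p = 0.0116). *GmPRR5d* (0.69 ± 0.319, adjusted p = 0.166) and the chromosome 13 *GmPRR7* (0.66 ± 0.274, adjusted p = 0.116) did not pass. Both passed after quantile normalization (adjusted p = 0.00691 and 0.00622) and without ZT32 R (adjusted p = 0.0453 and 0.0181). The call of *GmPRR5b* was lost without ZT28 M (adjusted p = 0.0796) and with no filter on low genes (adjusted p = 0.0739). Of all calls at this step 33.4% were rises, and 50.4% after quantile normalization.

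From ZT28 to ZT32 the family split. *GmPRR5b* rose by 2.07 ± 0.273 (adjusted p = 3.74e-06), where 2.48% of all genes rose, and *GmPRR5d* fell by 1.44 ± 0.319 (adjusted p = 0.00274), where 7.4% fell. Without ZT32 R the rise of *GmPRR5b* was 2.56 and the fall of *GmPRR5d* was -0.97 (adjusted p = 0.0203). *GmPRR3b* (-0.55 ± 0.199, adjusted p = 0.0798) and both *GmPRR7* genes did not pass, while *GmPRR3b* did without ZT28 L (adjusted p = 0.0315) or ZT32 M (adjusted p = 0.0401). The chromosome 13 *GmPRR7* changed by 0.29 ± 0.274, and by 0.78 without ZT32 R, where it did pass (adjusted p = 0.0228). Rises made up 25.1% of all calls, and 47.9% after quantile normalization.

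From ZT32 to ZT36, 4 of 5 genes fell, where 7.82% of all genes fell and the median gene was 0.53 higher. *GmPRR5d* fell by 3.29 ± 0.319 (adjusted p = 3.73e-09) and *GmPRR5b* fell by 1.88 ± 0.273 (adjusted p = 3.06e-06). The chromosome 10 *GmPRR7* fell by 1.07 ± 0.290 (adjusted p = 0.00306) and *GmPRR3b* by 0.90 ± 0.199 (adjusted p = 0.000528). The chromosome 13 *GmPRR7* was the exception, with 0.21 ± 0.274 (adjusted p = 0.518), and -0.28 without ZT32 R (adjusted p = 0.305). The same 4 of 5 genes fell without ZT32 R. The differences were then -3.76 (*GmPRR5d*), -2.37 (*GmPRR5b*), -1.49 (chromosome 10 *GmPRR7*) and -1.07 (*GmPRR3b*). These 4 genes also fell after quantile normalization, which moved the share of rises among all calls from 85.9% to 53.6%.

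From ZT36 to ZT40, 4 of 5 genes fell, where 2.45% of all genes did. The chromosome 13 *GmPRR7* dropped by 2.01 ± 0.274 (adjusted p = 7.24e-06), the chromosome 10 *GmPRR7* by 1.82 ± 0.290 (adjusted p = 6.10e-05), *GmPRR5b* by 1.31 ± 0.273 (adjusted p = 0.00164) and *GmPRR3b* by 0.72 ± 0.199 (adjusted p = 0.0186). The call of *GmPRR3b* was lost when ZT36 M, ZT36 R, ZT40 L or ZT40 R was left out (adjusted p from 0.0570 to 0.0852). *GmPRR5d*, already at its lowest, changed by 0.27 ± 0.319 (adjusted p = 0.751). Rises made up 70.2% of all calls, and 54.6% after quantile normalization.

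From ZT40 to ZT44, *GmPRR5d* alone among the 5 genes was called, with a rise of 1.73 ± 0.319 (adjusted p = 0.000308), where 4.31% of all genes rose. The other 4 genes changed by -0.16 to 0.12 and none had an adjusted p under 0.718. Rises made up 20.9% of all calls, and 52.8% after quantile normalization. Across the ends of the sampled day, ZT24 against ZT44, 3 of 5 genes were higher at ZT24, where 5.89% of all genes were. These were *GmPRR5d* (2.04 ± 0.319, adjusted p = 4.62e-05), the chromosome 10 *GmPRR7* (1.84 ± 0.290, adjusted p = 5.16e-05) and *GmPRR3b* (0.90 ± 0.199, adjusted p = 0.00251). The chromosome 13 *GmPRR7* missed the threshold (0.73 ± 0.274, adjusted p = 0.0881) and passed without ZT32 R (adjusted p = 0.0112), and *GmPRR5b* was at 0.15 ± 0.273 (adjusted p = 0.814).

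**Figure D3:**
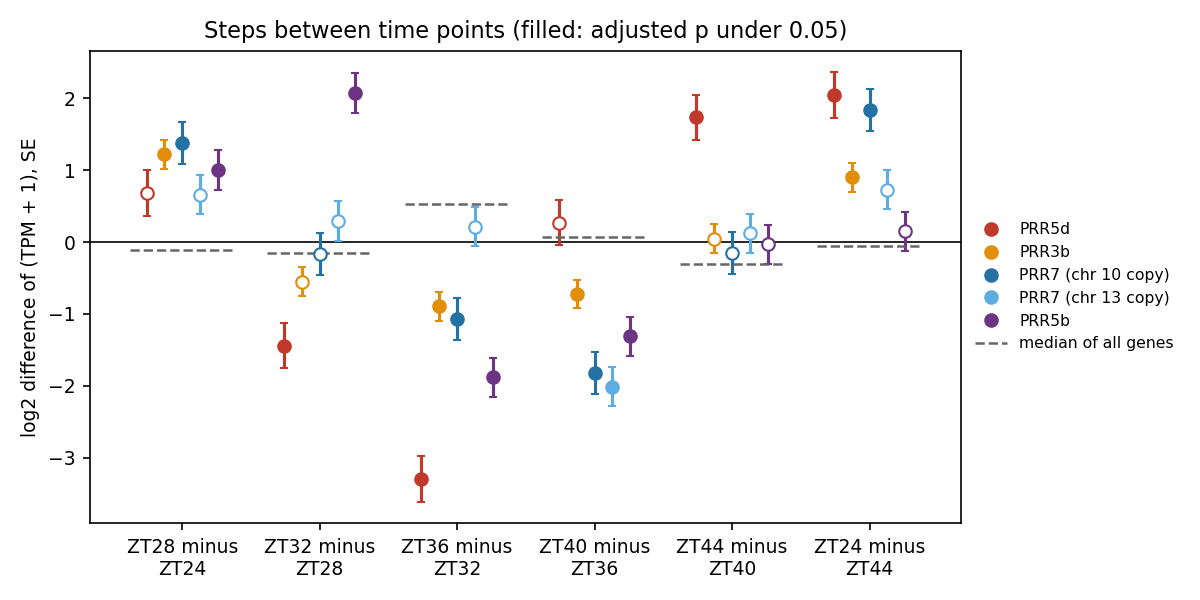
Difference between neighbouring time points on the log2(TPM + 1) scale with its SE (y axis) for each of the 5 genes at the 6 steps (x axis); filled symbols passed an adjusted p of 0.05 and the dashed line is the median of all 24620 genes. *GmPRR5b* alone rises from ZT28 to ZT32 and *GmPRR5d* alone from ZT40 to ZT44, among filled symbols.

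*GmPRR5d* was on average the largest part of the total of the 5 genes at every time point except ZT36. The sum of their TPM was 30.4 ± 4.46 at ZT24 and highest at ZT28, at 60.9 ± 21.6. It was 42.7 ± 20.6 at ZT32 and 54.6 there without ZT32 R. The sum then fell to 11.2 ± 1.73 at ZT36 and 1.75 ± 0.0890 at ZT40, and was 6.08 ± 1.95 at ZT44. The highest mean was 34.7 times the lowest. At ZT28 the 3 libraries had sums of 38.8, 81.8 and 62.1, and in each of the 5 genes L was the lowest and M the highest.

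The make-up of that total changed from one time point to the next. *GmPRR5d* made up 79.3% ± 1.58 (SD, n = 3) of the sum at ZT24, 67.1% ± 0.850 at ZT28 and 35.6% ± 0.711 at ZT32. In ZT32 R its share was 35.5%, beside 35.0% and 36.4% in L and M, although the sum in R was 34.8% of their mean. Other shares differed more in that library, with 8.80% for *GmPRR3b* (5.02% and 5.45% in L and M) and 5.52% for the chromosome 13 *GmPRR7* (8.54% and 8.70%). *GmPRR5b* took 24.4% ± 1.99 of the sum at ZT32, from 2.50% ± 0.462 at ZT28. At ZT36 the *GmPRR7* genes held most of it, with 38.3% ± 0.215 for chromosome 10 and 33.1% ± 0.137 for chromosome 13, and *GmPRR5d* had 4.54% ± 1.31. *GmPRR3b* stayed between 2.19% and 7.47% at every time point. At ZT40, where the sum was lowest, *GmPRR5d* had 47.2% ± 3.97 and the chromosome 10 *GmPRR7* 27.99% ± 6.77. At ZT44, *GmPRR5d* was again at 85.8% ± 4.28.

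**Figure D4:**
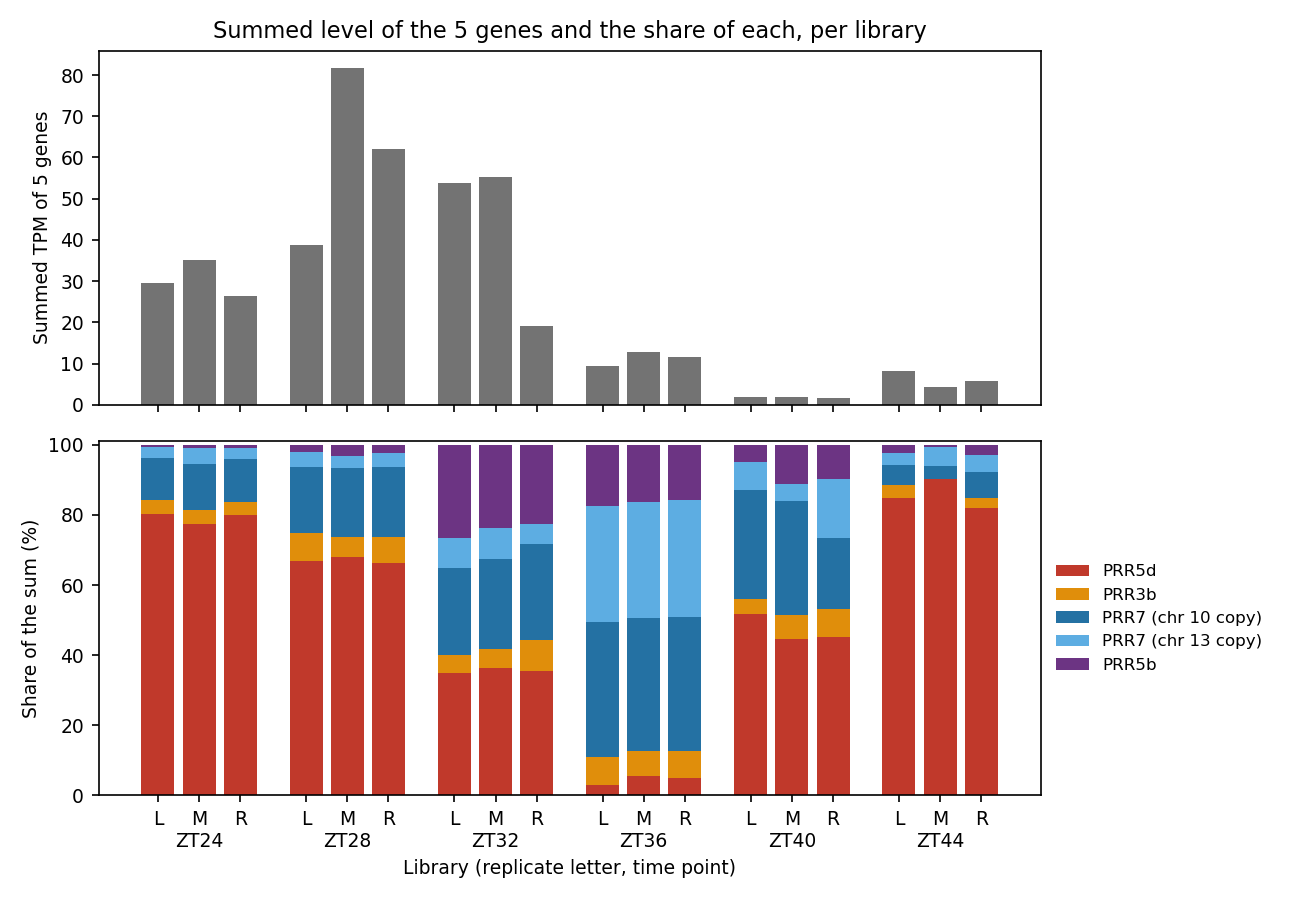
Upper panel: summed TPM of the 5 genes in each of the 18 libraries (bars from 0). Lower panel: share of that sum held by each gene in percent; *GmPRR5d* holds 79.3% on average at ZT24, the *GmPRR7* pair holds most at ZT36, and ZT32 R has a low sum with a *GmPRR5d* share of 35.5%, beside 35.0% and 36.4% in ZT32 L and M.

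The *GmPRR7* genes were also compared within each library. The chromosome 10 gene was higher than the chromosome 13 gene in 17 of 18 libraries, ZT44 M being the exception at levels of 0.155 and 0.240 TPM. The log2 ratio of TPM + 1, which the added 1 draws towards 0 at low levels, was 1.18 ± 0.0810 at ZT24, 1.91 ± 0.242 at ZT28 and 1.45 ± 0.131 at ZT32. It came down to 0.17 ± 0.00386 at ZT36, where the libraries of L, M and R had plain TPM ratios of 1.16, 1.15 and 1.15. The plain ratios had been 2.85 to 5.46 over the libraries of ZT24, ZT28 and ZT32, all above those of ZT36. At ZT40 and ZT44 both genes were below 1 TPM in each library, and the log2 ratio of TPM + 1 was 0.36 ± 0.257 and 0.08 ± 0.155. The plain ratios there were spread widely, from 1.21 to 6.82 at ZT40, which overlapped those of the early time points, and from 0.644 to 1.60 at ZT44. These ratios were not tested.

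**Figure D5:**
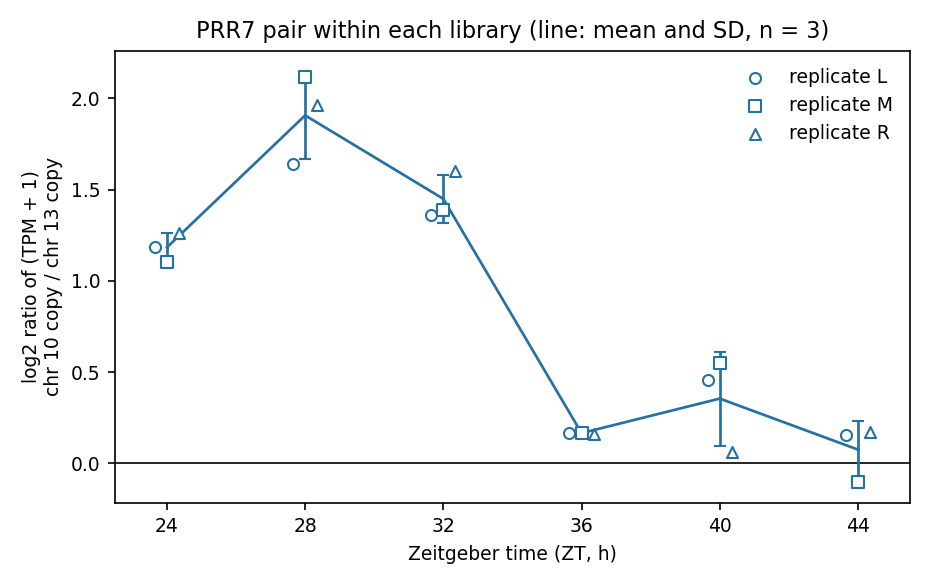
Log2 ratio of TPM + 1 of the chromosome 10 to the chromosome 13 *GmPRR7* (y axis) against zeitgeber time (x axis, h); symbols are libraries, the line is the mean with SD of 3. Values lie between 1.10 and 2.12 up to ZT32 and between -0.10 and 0.55 from ZT36.

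Across the 18 libraries, *GmPRR3b* and the chromosome 10 *GmPRR7* had the most similar profiles of the family (Pearson r = 0.957, Spearman rho = 0.911), and *GmPRR5d* was least similar to *GmPRR5b* (r = 0.248, rho = 0.162) and to the chromosome 13 *GmPRR7* (r = 0.251, rho = 0.139). The *GmPRR7* genes had r = 0.864 with each other. These correlations are descriptions over libraries that share time points. Among all other genes tested, the profile closest to *GmPRR5d* was that of Glyma.07G049900 (r = 0.984), which lies 37.1 kb away on chromosome 7 with 4 annotated genes between and had its own highest mean, 109 ± 22.1 TPM, at ZT28. The closest to the chromosome 10 *GmPRR7* was Glyma.16G027200 (r = 0.987), to the chromosome 13 *GmPRR7* Glyma.04G194600 (r = 0.938) and to *GmPRR3b* Glyma.06G169400 (r = 0.972). No source used here names these genes. The closest gene was another one for 4 of the 5 *PRR* genes with Spearman's rho, all but the chromosome 10 *GmPRR7*, and for all 5 with the 6 time-point means. The number of genes with r above 0.9 was 128 for *GmPRR5d*, 81 for *GmPRR3b*, 63 for the chromosome 10 *GmPRR7*, 30 for *GmPRR5b* and 7 for the chromosome 13 *GmPRR7*.

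*GmPRR5d* also lies near *LHY1b* (Glyma.07G048500), with 87.2 kb and 8 annotated genes between them. *LHY1b* was highest at ZT24 (64.3 ± 10.3 TPM) and *GmPRR5d* at ZT28. Of the 8 genes between, 6 were tested and all 6 passed the F-test, as 76.3% of all genes did. None had its highest mean at ZT28, where 8.08% of all genes tested did, and 1 had it at ZT24, where 11.1% did. With only 6 genes, these counts do not set them apart from all genes. On chromosome 12, *GmPRR3b* and *LUX1* were 1160.3 kb apart.

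The assembled loci showed how much of each gene, from its start to its end, a single locus on the same strand spanned. This is not a measure of coverage by reads, and a gene split into shorter loci counted as not spanned. A locus over at least 90% of the gene was built in 12 of 18 libraries for *GmPRR5d* and for the chromosome 10 *GmPRR7*, in 9 for the chromosome 13 *GmPRR7*, in 8 for *GmPRR3b* and in 7 for *GmPRR5b*. At ZT40 no library held such a locus for 4 of the genes, and 1 library held one for *GmPRR5d*. A locus on the opposite strand was assembled in 1 library, at the chromosome 10 *GmPRR7*. Below 1 TPM a locus over at least 90% of the gene was built in 3 cases, for *GmPRR5d* in ZT40 R (0.747 TPM) and for *GmPRR3b* in ZT36 M and ZT36 R (0.876 and 0.898 TPM).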

How the data were processed

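RNA from 18 leaf libraries (6 time points, 3 biological replicates each) was analysed. The authors removed adapters (Trimmomatic), mapped the paired reads by HISAT2 2.2.1 on the Gmax_Wm82_a2_v1 assembly and quantified genes and assembled loci with StringTie. The deposited signal per gene is StringTie's TPM, and the deposited FPKM was used as an alternative. The deposited coverage divided by FPKM gave the aligned sequence per library, and no read counts were used. StringTie lists annotated genes and assembled loci on 1 scale per library.

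The 24620 genes with a mean of at least 1 TPM at any time point were fitted as log2(TPM + 1), with a pseudocount of 1, in limma 3.58.1 (R 4.3.3) with an intensity trend and all 18 libraries. Time was tested by a moderated F-test, by cosine and sine terms with a period of 24 h and by contrasts between time points, each adjusted by Benjamini-Hochberg over all genes tested, with a threshold of 0.05. Fold changes on this scale understate those of low genes. The code was tested on simulated data. The p-values set a difference against the spread of libraries around the fit, pooled over all 18 libraries and moderated across genes.

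The named genes were the 5 *PRR* genes, 10 clock genes, the leaf marker and, for each *PRR* gene, the gene with the highest correlation (4 of the 5 printed). *GmPRR5d* and *GmPRR5b* are named by the study; the other 3 names were assigned with the identifiers. The members and lists were chosen with earlier results of these data known. Of the 55589 identifiers, 0 matched the reference table, so no sequence is shown and planned promoter motifs were not searched.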

Additional observations from a re-analysis of the deposited data

How the results depend on the processing

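All 5 *PRR* genes passed the F-test, the cosine test and the contrast of their highest against lowest time point under every alternative, except that with a filter of at least 5 TPM only 3 of them were tested and 3 passed each. The pair in that contrast was chosen by its means, so its passes are a description and lend no support. With the main settings, 76.3% of all genes passed the F-test and 64.7% the cosine test. The number of members with their highest mean at the same time point was 5, and 3 after quantile normalization, after leaving out the 100 genes of highest mean TPM and with the median of the replicates. Leaving out 1 library gave 3 to 5, the 3 without ZT32 R, with both *GmPRR7* genes moving to ZT32. Leaving out ZT28 M moved the chromosome 10 gene and leaving out ZT36 M the chromosome 13 gene. The ratio of the highest to the lowest summed level was 34.7, and 56.8 after quantile normalization. The gap between the *GmPRR5d* and *GmPRR5b* peaks was 4.72 h to 5.49 h. Of 30 steps, 17 were called, 16 to 21 with 1 library left out, 20 after quantile normalization and 12 of those tested at 5 TPM. Steps that changed sign were all uncalled. The chromosome 10 *GmPRR7* at ZT32 against ZT28 had 0.18 (quantile), 0.17 (100 genes left out) and -0.46 to 0.25 with 1 library left out (above 0 without ZT28 M or ZT32 R), and at ZT44 against ZT40 0.10 (quantile). The chromosome 13 *GmPRR7* at ZT36 against ZT32 had -0.39 (quantile), -0.023 (100 genes left out) and -0.28 (without ZT32 R) to 0.47 (without ZT32 M). At ZT44 against ZT40, *GmPRR5b* had 0.14 (quantile) and -0.073 to 0.035 (above 0 without ZT44 M), and *GmPRR3b* -0.047 (without ZT44 L) to 0.15 (without ZT44 M). The causes were not tested.

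Counts over all genes depended more on the settings. The F-test count of 18774 ranged from 8911 to 22752 and the cosine count of 15921 from 7671 to 20220. Higher at ZT28 than ZT24 were 1145 (733 to 2640), at ZT32 than ZT28 610 (337 to 3554), at ZT44 than ZT40 1060 (783 to 2172) and at ZT24 than ZT44 1451 (846 to 2169). Lower at ZT32 than ZT28 were 1822 (1034 to 2665), at ZT36 than ZT32 1926 (1148 to 6864) and at ZT40 than ZT36 603 (310 to 1381). Higher at ZT28 than at ZT36, ZT44 and ZT40 were 2911 (1844 to 4903), 2034 (1133 to 3635) and 1754 (1145 to 3839), and at ZT32 than ZT44 2364 (1080 to 11213).

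Whether the replicate letters pair the samples was not established, and weak correlations cannot settle it. Libraries of the same letter had correlated deviations in 10 of 45 pairs (r above 0.1), and libraries of different letters in 16 of 90. The median r was -0.013 for the same letter and 0.0023 for different letters, and 8 of 18 libraries correlated best with their own letter. With the letter as a replicate block, 17 of 30 steps and all 5 genes were called. The shallow ZT44 libraries (3.11 to 3.53 Gb) limit the values below 1 TPM.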
